A study of Mus musculus with 12 samples.

Results

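The receptors for interferon-gamma, the type I interferons, interleukin (IL)-12, IL-10 and IL-17 are assembled from 10 subunits, encoded in the mouse by Ifngr1 and Ifngr2, Ifnar1 and Ifnar2, Il12rb1 and Il12rb2, Il10ra and Il10rb, and Il17ra and Il17rc. All array probes whose transcript accession matched 1 of these 10 genes were taken, which gave 15 probes for 10 of the 20659 genes with a symbol on the array. Ifnar1 had 3 probes, Il12rb1, Il12rb2 and Il17rc had 2 each, and the other genes had 1. The members were chosen by name, with earlier results of these data known. The question was for which T cell cytokines microglia hold receptor transcripts, without and with exposure to the products of T cells. Receptor protein and the response to each single cytokine were not measured.

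Primary microglia were harvested from mixed glial cultures of neonatal C57BL/6 mouse brains and kept for 16 h in 1 of 3 conditions, with 4 arrays each. The untreated group was given T cell medium, the Th1 group the supernatant of Th1 cultures and the Th17 group the supernatant of Th17 cultures. All T cells came from C57BL/6 mice, and no group carried a genetic change. The supernatant is a mixture, so a difference belongs to the whole supernatant and not to 1 cytokine. Arrays are identified by group and by experiment, of which there were 4 (numbers 12, 13, 14 and 16). Transcript levels are log2 of the normalised signal, on which 1 unit is 2-fold and the lowest possible value is 3.91. "Called" means an adjusted p under 0.01 (limma, Benjamini-Hochberg over 24286 probes) together with a change of more than 2-fold. Levels of different probes cannot be compared with each other, so each probe is set only against itself in other groups.

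These receptors hold no kinase of their own. Ligand brings the chains of a pair together, and the Janus kinases bound to the chains then phosphorylate STAT transcription factors. Interferon-gamma binds IFNGR1 and signals together with IFNGR2. The type I interferons use IFNAR1 and IFNAR2, with STAT2 and IRF9 among the factors downstream. IL-12 uses IL-12R beta 1 and beta 2 with STAT4, a pathway best known in T cells and natural killer cells, and the beta 1 chain also serves IL-23 together with IL-23R. IL-10, a brake on macrophage activation, binds IL-10RA and shares IL-10RB with IL-22 and the interferons lambda. The IL-17 receptor differs from the rest, since IL-17RA and IL-17RC signal through the adaptor Act1 and TRAF proteins rather than through STATs. Microglia are the resident macrophages of the brain, and macrophages are known to respond to interferons and to IL-10.

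RefSeq promoter windows (GRCm38.p6, 250 bases before to 50 bases after the start of transcription) were found for 6 of the 10 genes, namely Ifngr1, Ifngr2, Ifnar1, Ifnar2, Il12rb2 and Il17rc, and not for Il10ra, Il10rb, Il12rb1 and Il17ra. Both strands were searched for the GAS core (TTCNNNGAA, the STAT site), the core of the interferon-stimulated response element (GAAANNGAA) and the CCAAT box (CCAAT), and no match overlapped another in these windows. The 4 windows below are shown because they set a gene that rose (Il12rb2) and a gene that fell by 1 of its probes (Ifnar1) beside one not called (Ifnar2), all with the letters of a GAS core, and beside a gene that fell without them (Ifngr1). They lie at chr6:67376139-67376438 (minus strand), chr16:91484965-91485264, chr16:91372533-91372832 and chr10:19591699-19591998 (plus strand for the last 3). Capitals mark a GAS core in the first 3 and the CCAAT boxes, one on each strand, in Ifngr1.
Il12rb2: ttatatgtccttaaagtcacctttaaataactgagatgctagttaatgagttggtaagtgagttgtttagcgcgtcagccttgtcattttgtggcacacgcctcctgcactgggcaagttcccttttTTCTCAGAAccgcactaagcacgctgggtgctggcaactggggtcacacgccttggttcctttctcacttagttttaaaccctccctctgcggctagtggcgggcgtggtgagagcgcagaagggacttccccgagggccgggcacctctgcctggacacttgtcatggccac
Ifnar1: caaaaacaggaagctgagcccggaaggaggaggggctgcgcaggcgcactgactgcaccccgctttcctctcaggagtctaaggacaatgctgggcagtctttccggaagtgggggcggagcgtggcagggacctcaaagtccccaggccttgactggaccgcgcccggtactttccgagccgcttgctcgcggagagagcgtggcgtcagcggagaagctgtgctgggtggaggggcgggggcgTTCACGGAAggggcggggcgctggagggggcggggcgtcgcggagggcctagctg
Ifnar2: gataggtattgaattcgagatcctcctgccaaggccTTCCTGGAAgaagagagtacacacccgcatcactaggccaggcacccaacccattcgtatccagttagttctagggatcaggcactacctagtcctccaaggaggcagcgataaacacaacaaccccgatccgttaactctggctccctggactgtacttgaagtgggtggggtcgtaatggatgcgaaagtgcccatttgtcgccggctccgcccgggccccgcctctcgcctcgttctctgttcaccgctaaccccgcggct
Ifngr1: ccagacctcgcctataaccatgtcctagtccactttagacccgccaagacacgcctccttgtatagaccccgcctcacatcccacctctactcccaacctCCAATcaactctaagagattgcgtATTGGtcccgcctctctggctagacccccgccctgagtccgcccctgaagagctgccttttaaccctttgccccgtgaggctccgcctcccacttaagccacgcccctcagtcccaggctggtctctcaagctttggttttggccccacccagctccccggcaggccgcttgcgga

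The GAS core began 123 bases before the start in Il12rb2, 5 bases before it in Ifnar1 and 214 bases before it in Ifnar2. These letters occurred in 8.3% of all 32851 windows of the same length. The interferon-stimulated response element core was in none of the 6 windows, against 8.56% of all windows. CCAAT was in the windows of Ifngr1 and Ifngr2, against 37.4% of all. These matches describe letters and not binding. Ifnar2, Il10rb, Ifnar1 and Ifngr2 are neighbours on chromosome 16, with 0 other protein-coding genes between them in the RefSeq annotation. Il12rb2, Il17rc and Il17ra lie on chromosome 6, Il12rb1 on chromosome 8, Il10ra on chromosome 9 and Ifngr1 on chromosome 10.

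Without exposure, the first probe, the kept one of highest mean signal, was above background on all 4 untreated arrays for 9 of the 10 genes. For Il12rb1 this held on 3 of 4 arrays at the first probe and on all 4 at the second. The second probe of Il17rc was above background on 0 of the 4 untreated arrays. After 16 h of Th1 supernatant, 7 of the 14 receptor probes kept by the filter on dim probes were called, 5 higher and 2 lower, against 15.5% of all probes tested (7.56% higher and 7.98% lower). The calls fell on 5 genes. Il12rb1, Il12rb2 and Il10ra rose, Ifngr1 and 1 of the 3 probes of Ifnar1 fell, and Ifngr2, Ifnar2, Il10rb, Il17ra and Il17rc were not called. With the experiment as a block, the first probe of Il17rc was called higher as well (adjusted p = 0.00111, limma). The median log2 fold change was 0.13 over the 14 probes and -0.06 over all probes. The fifteenth probe, the second of Il17rc, was not kept and was not tested.

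**Figure D1:**
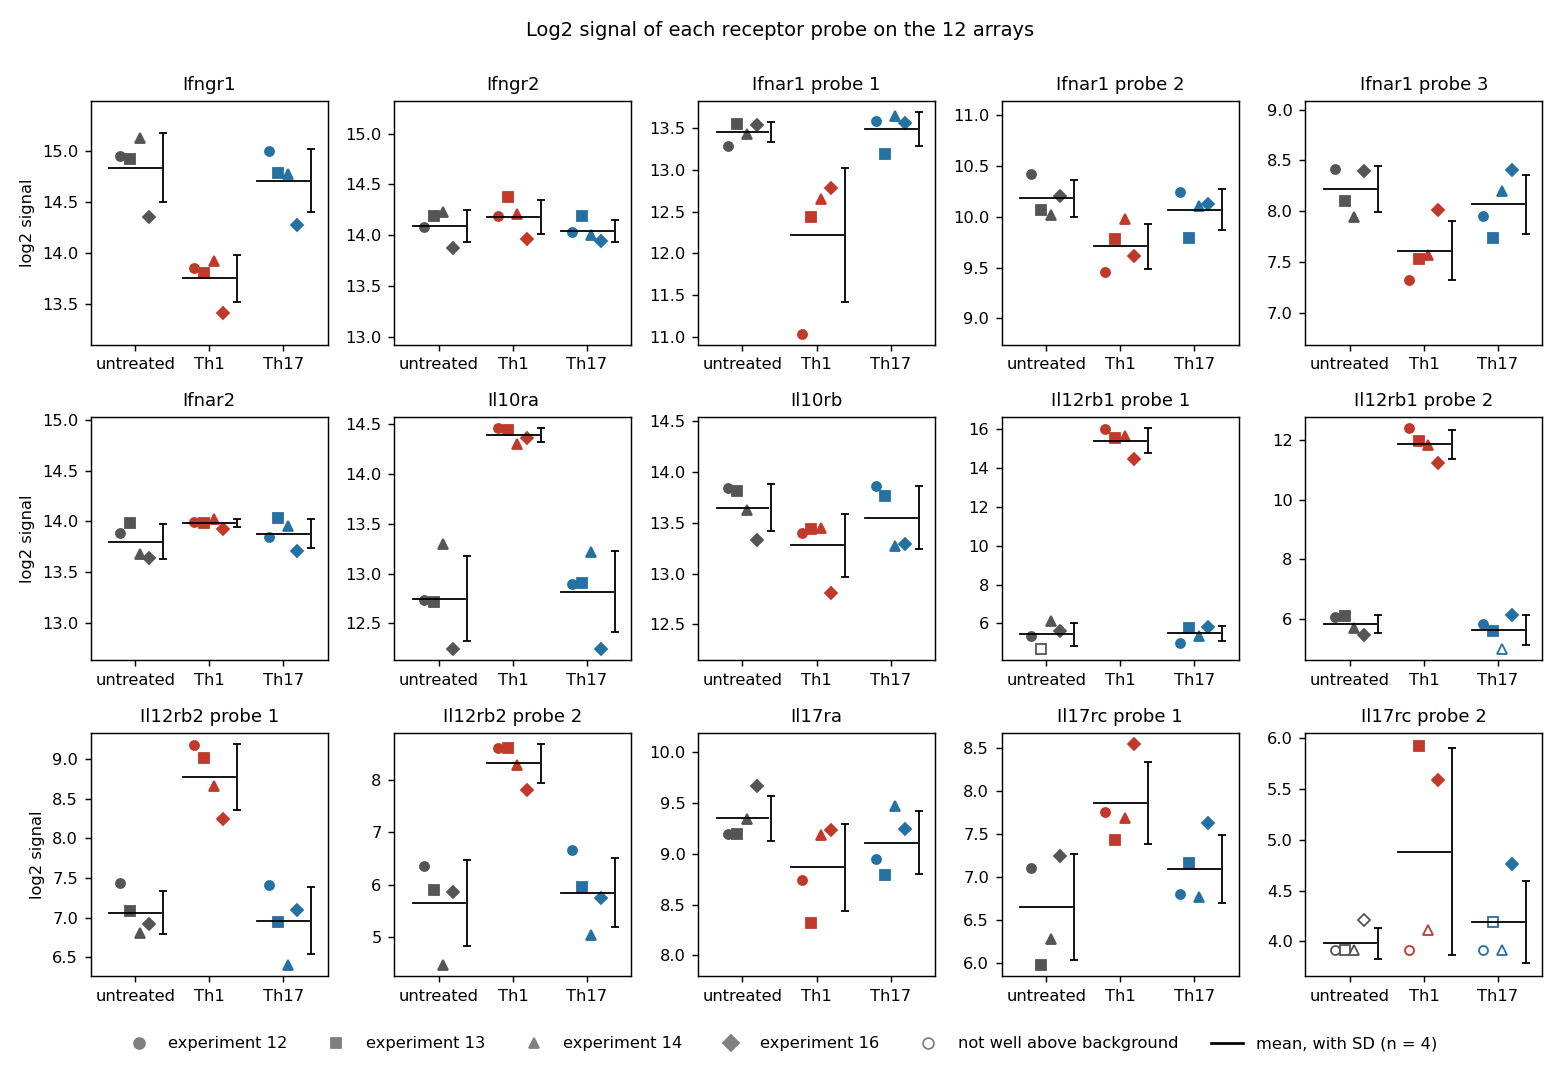
Log2 signal (y axis) of the 15 receptor probes on each of the 12 arrays, by group (x axis), with 1 symbol per experiment; open symbols are not well above background, and black lines are the group mean with the SD (n = 4). Il12rb1 moved from 4.67 to 6.15 on the untreated arrays to 14.46 to 15.96 on the Th1 arrays at its first probe, and the Th17 arrays lay among the untreated arrays.

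The IL-12 receptor chain Il12rb1, which IL-12 and IL-23 share, had the highest rise of the 10 genes. At its first probe the log2 signal was 5.35, 4.67, 6.15 and 5.59 on untreated 12, 13, 14 and 16 and 15.96, 15.50, 15.63 and 14.46 on Th1 12, 13, 14 and 16. Every Th1 array lay far above every untreated array, and untreated 13 was the array not above background. The mean rose from 5.44 ± 0.61 (SD, n = 4) to 15.39 ± 0.65, a log2 fold change of 9.95 ± 0.36 (SE; adjusted p = 5.27e-09, limma), which is 986-fold. Within the 3 slides the difference was 10.95, 9.41 and 8.87. Here and below, each slide value rests on 1 or 2 arrays per group, not always of the same experiments.

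The second probe of Il12rb1 gave the same direction and a smaller size. It read 6.06, 6.09, 5.70 and 5.47 on the untreated arrays and 12.40, 11.96, 11.82 and 11.23 on the Th1 arrays. On both probes Th1 16 was the lowest of the Th1 arrays. The log2 fold change was 6.03 ± 0.28 (adjusted p = 3.55e-08, limma), or 65.2-fold. The size at the first probe was greater by more than the standard errors, and the difference between the probes was not tested. With normexp background correction the values became 7.58 for the first probe and 4.09 for the second.

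Among the other genes with a symbol, those closest to the first Il12rb1 probe over the 12 arrays, by the root mean square difference of centred log2 signal, were Gm4841 (0.55), Slco3a1 (0.64), Plbd1 (0.66), Serpina3f (0.78) and Cnn3 (0.81). Their log2 fold changes in Th1 against untreated were 9.22, 9.72, 10.59, 9.29 and 8.75.

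Il12rb2, the chain that couples the IL-12 receptor to STAT4, also rose, by less. Its first probe read 7.43, 7.08, 6.80 and 6.92 on the untreated arrays and 9.18, 9.01, 8.66 and 8.24 on the Th1 arrays, so the groups did not overlap. The log2 fold change was 1.71 ± 0.25 (adjusted p = 0.000193, limma), and within the slides 1.93, 2.03 and 1.32. The second probe read 6.35, 5.90, 4.47 and 5.86 untreated and 8.59, 8.60, 8.27 and 7.80 with Th1, a log2 fold change of 2.67 ± 0.41 (adjusted p = 0.000301, limma). Untreated 14 was the dimmest array at this probe. Normexp gave 1.02 and 1.18 for these probes, both still called.

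Il10ra, the chain that gives the IL-10 receptor its ligand, rose on every experiment. The log2 signal was 12.74, 12.72, 13.30 and 12.24 on the untreated arrays and 14.46, 14.44, 14.30 and 14.36 on the Th1 arrays. The Th1 arrays lay close together (SD 0.07) at a level above all untreated arrays, which were more spread (SD 0.43). The log2 fold change was 1.64 ± 0.23 (adjusted p = 0.000156, limma), or 3.11-fold, and 1.73, 1.06 and 2.12 within the slides. Il10rb, the chain shared with other cytokines of the IL-10 family, read 13.84, 13.81, 13.63 and 13.33 untreated and 13.40, 13.44, 13.45 and 12.81 with Th1. It was lower in each of the 4 experiments, by 0.18 to 0.52, but the groups overlapped. The change of -0.38 ± 0.19 was not called (adjusted p = 0.134, limma, 95% interval -0.80 to 0.04). With the experiment as a block it was -0.38 ± 0.11 (adjusted p = 0.0198, limma). With the slide as a block it was -0.36 ± 0.08 (adjusted p = 0.00511, limma), past the p threshold but not 2-fold.

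Ifngr1, the ligand-binding chain for interferon-gamma, fell. It read 14.95, 14.92, 15.13 and 14.35 on the untreated arrays and 13.85, 13.80, 13.92 and 13.41 on the Th1 arrays. The highest Th1 array lay below the lowest untreated array, and experiment 16 was the lowest in both groups. The log2 fold change was -1.09 ± 0.20 (adjusted p = 0.000979, limma), a 2.13-fold lower level, with -1.09, -1.27 and -0.93 within the slides. This value lies near the 2-fold limit, and with scaling to the 75th percentile alone it became -0.82 (adjusted p = 0.00614, limma), past the p threshold but not past 2-fold. The same held without untreated 14 (-0.99) and without Th1 16 (-0.98).

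Ifngr2, the partner chain that brings in JAK2, read 14.08, 14.19, 14.23 and 13.87 untreated and 14.19, 14.37, 14.21 and 13.96 with Th1. The groups overlapped, with Th1 13 the highest array. The log2 fold change was 0.09 ± 0.12 (adjusted p = 0.567, limma), and its 95% interval of -0.17 to 0.35 leaves out a change of 2-fold in either direction.

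Ifnar1 carries TYK2 and is needed for the response to all type I interferons. Its first probe read 13.28, 13.55, 13.43 and 13.53 on the untreated arrays and 11.04, 12.43, 12.65 and 12.78 on the Th1 arrays. Th1 12 stood well below the other 3 Th1 arrays, which in turn lay below every untreated array. The log2 fold change was -1.23 ± 0.31 (adjusted p = 0.00762, limma), with -2.38, -0.90 and -0.75 within the slides. Without Th1 12 it was -0.83 (adjusted p = 0.00098, limma), no longer 2-fold, and the call was lost in 16 of 24 alternatives, with an adjusted p of 0.00098 to 0.0242 over all of them. When 1 array was left out, the call held only without Th17 13, Th1 14 or Th1 16.

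The other probes of Ifnar1 moved less. The second read 10.42, 10.07, 10.02 and 10.20 untreated and 9.46, 9.78, 9.98 and 9.61 with Th1, a change of -0.47 ± 0.14 (adjusted p = 0.0191, limma). The third read 8.42, 8.10, 7.94 and 8.40 untreated and 7.32, 7.53, 7.57 and 8.01 with Th1, a change of -0.61 ± 0.19 (adjusted p = 0.0196, limma). Both were lower in 4 of 4 experiments and neither was called. With the experiment as a block, the adjusted p was 0.0245 for the second and 0.00622 for the third (limma), and neither change was past 2-fold. Ifnar2, the chain with the higher affinity for type I interferons, read 13.89, 13.98, 13.68 and 13.64 untreated and 13.99, 13.98, 14.02 and 13.93 with Th1. Its change of 0.18 ± 0.11 was not called (adjusted p = 0.192, limma; 95% interval -0.05 to 0.41). The genes closest to the first Ifnar1 probe over the 12 arrays, by the same measure, were Pikfyve (0.19), Ikbip (0.22), Cnot6l (0.22), Smyd3 (0.23) and Atrn (0.24).

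The IL-17 receptor genes were not called in either direction. Il17ra, shared by several IL-17 cytokines, read 9.20, 9.20, 9.34 and 9.67 untreated and 8.74, 8.32, 9.19 and 9.24 with Th1. It was lower in all 4 experiments, by 0.15 to 0.88, with groups that overlapped and a change of -0.48 ± 0.22 (adjusted p = 0.0974, limma). With the experiment as a block it was -0.48 ± 0.12 (adjusted p = 0.0104, limma), still not called. Il17rc, which pairs with it to bind IL-17A and IL-17F, was measured at its first probe, at 7.10, 5.97, 6.27 and 7.24 untreated and 7.76, 7.43, 7.69 and 8.55 with Th1. All 4 Th1 arrays lay above all untreated arrays. The change of 1.21 ± 0.33 narrowly missed the p threshold (adjusted p = 0.0109, limma) and passed it with the experiment as a block (adjusted p = 0.00111), where the difference was 0.65 to 1.46 over the 4 experiments. It was called in 4 of 24 alternatives, among them the one without untreated 16 (1.41), and lay at 0.53 with normexp and at 0.99 without untreated 13, with an adjusted p of 0.00111 to 0.055 over the alternatives (limma). Within the slides the difference was 1.22, 1.30 and 1.31.

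The second Il17rc probe was well above background on Th1 13 (5.92), Th1 16 (5.59) and Th17 16 (4.76) and on 0 of the 4 untreated arrays. It could therefore not be given a fold change.

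**Figure D2:**
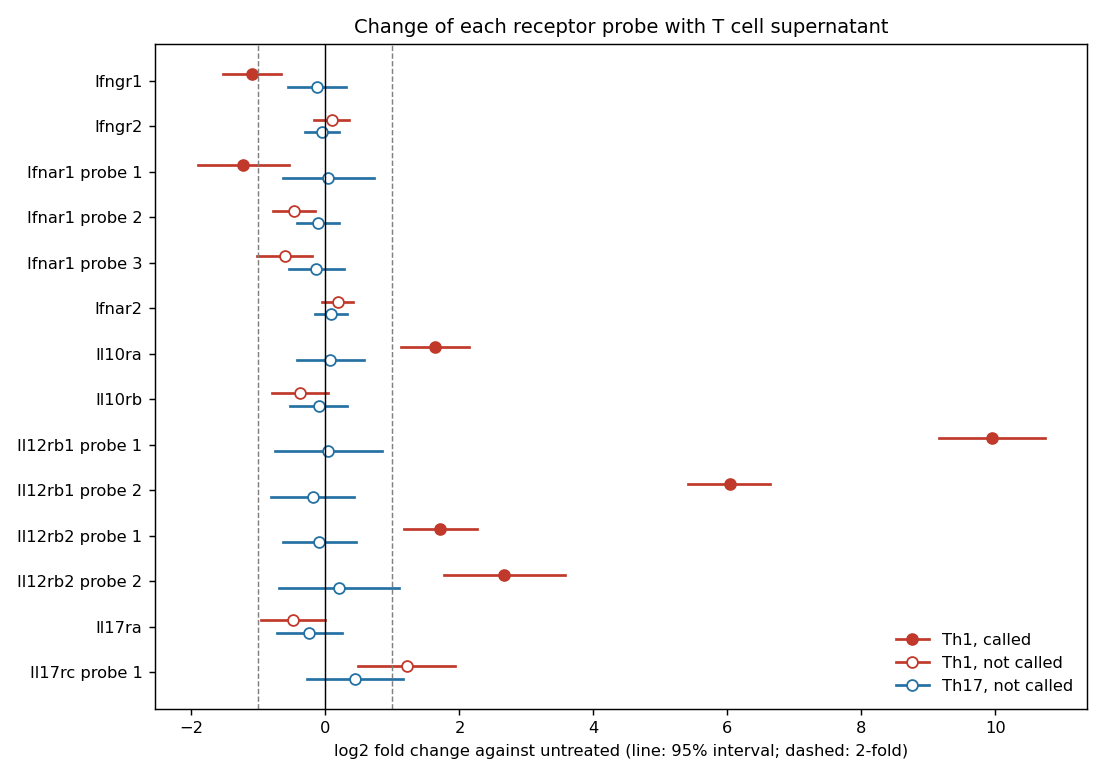
Log2 fold change against untreated (x axis, with the 95% interval from limma; dashed lines mark 2-fold) for the 14 tested receptor probes (y axis), with Th1 in red and Th17 in blue; filled circles are called. Th1 values run from -1.23 (Ifnar1 probe 1) to 9.95 (Il12rb1 probe 1), whereas all Th17 intervals include 0.

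The groups did not overlap for 9 of the 14 probes in Th1 against untreated, against 40.9% of the probes tested. Probes in this count that were not called were the second of Ifnar1 and the first of Il17rc.

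Th17 supernatant left no called change on the receptors. None of the 14 probes was called (0% of all probes tested), and 0 of 14 had an unadjusted p under 0.05, against 380 of the 24286 probes tested. All 14 adjusted p-values were 1 (limma). The groups overlapped for all 14 probes, and 0.962% of all probes tested did not overlap. The receptor for the signature Th17 cytokine itself, IL-17, gave 0.44 ± 0.33 for Il17rc (first probe, 95% interval -0.28 to 1.16) and -0.24 ± 0.22 for Il17ra (-0.72 to 0.24). Il17rc read 6.80, 7.16, 6.76 and 7.63 on the Th17 arrays and was higher than untreated in 3 of 4 experiments. Il12rb1 differed from untreated by 0.04 ± 0.36 at its first probe, and Il10ra by 0.07 ± 0.23. The 95% interval left out a 2-fold change in either direction for 12 of the 14 probes. The exceptions were the second probe of Il12rb2 (-0.69 to 1.10) and the first of Il17rc.

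The Th1 and Th17 groups differed at both probes of Il12rb1 and Il12rb2, at Il10ra and at 1 of the 3 probes of Ifnar1. In all, 6 of the 14 probes were called, 5 higher and 1 lower, against 15% of all probes tested (7.02% higher and 7.95% lower). Il12rb1 was 9.90 ± 0.36 and 6.22 ± 0.28 higher at its probes, Il12rb2 1.81 ± 0.25 and 2.46 ± 0.41, and Il10ra 1.57 ± 0.23. Within the slides these differences were 10.97, 9.78 and 8.87 for the first probe of Il12rb1 and 1.55, 1.45 and 1.63 for Il10ra. Ifnar1 was lower by its first probe (-1.27 ± 0.31, adjusted p = 0.0065, limma), a call held in 11 of 24 alternatives and lost without Th1 12 (-0.87), and its other probes were not called (-0.36 and -0.47, adjusted p = 0.0599 and 0.0612). Ifngr1 passed the p threshold (adjusted p = 0.0023) but at -0.96 ± 0.20 not the 2-fold limit. The groups did not overlap for 7 of 14 probes, against 41.3% of the probes tested. Both comparisons use the same Th1 arrays.

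The chains of each receptor were also set against each other within the arrays. On each array the log2 signal of one chain was subtracted from that of the other. This measure was chosen after the levels were seen and follows from them, so it is described without a test. Only shifts of the difference can be read, since its level depends on the probes. Ifngr1 minus Ifngr2 was 0.87, 0.72, 0.90 and 0.48 on the untreated arrays and -0.34, -0.57, -0.29 and -0.55 on the Th1 arrays. The difference thus lay lower on every Th1 array, with a shift of -1.18 (-1.29 to -1.02 over the 4 experiments).

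The groups were also apart at the first probes of the other receptors, and 40.9% of the single probes tested did not overlap either. How often other pairs of probes are apart was not computed. Il10ra minus Il10rb shifted by 2.01, Il12rb1 minus Il12rb2 by 8.23 and Il17ra minus Il17rc by -1.69. Neither chain of the IL-17 receptor was called by itself. For the IL-12 receptor the shift ran from 3.36 to 8.23 over the combinations of probes, with no overlap between groups in any of them. With normexp the second probes of Il12rb1 and Il12rb2 changed by 4.09 and 1.18, so their shift lay below that range. Ifnar1 minus Ifnar2 shifted by -1.41 at the first probe of Ifnar1, by -1.01 there without Th1 12, and by -0.65 and -0.79 with the other probes. With scaling to the 75th percentile alone, the shift of the IL-17 receptor was -1.64 and that of the interferon-gamma receptor again -1.18. A factor common to an array cancels in such a difference. With normexp Il17ra and Il17rc changed by -0.4 and 0.53, a smaller shift, and Ifngr1 and Ifngr2 by -1.08 and 0.08. Whether the groups overlapped there was not computed. With Th17 supernatant the shift was -0.07 for the interferon-gamma, -0.04 for the type I interferon, 0.17 for the IL-10, 0.14 for the IL-12 and -0.68 for the IL-17 receptor, and the groups overlapped in all 5.

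**Figure D3:**
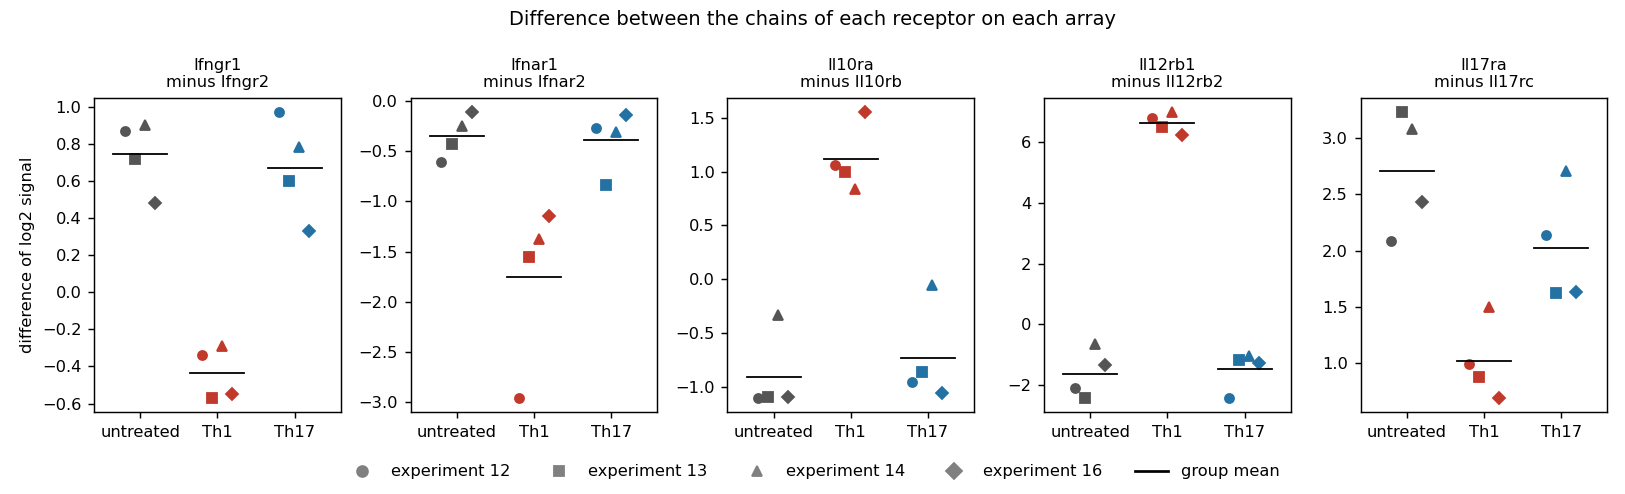
Difference of log2 signal between the first probes of the chains of each receptor (y axis) on each of the 12 arrays, by group (x axis), with 1 symbol per experiment and a line at the group mean. From untreated to Th1 the mean shifted by -1.18 for interferon-gamma and 8.23 for IL-12, and Th1 12 is the lowest array for type I interferon.

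Genes of these pathways were described from lists of ligands and related cytokines, partner and related chains, signalling proteins and responses. Each gene was read by 1 probe. Of 12 measured ligands and related cytokines, 2 rose with Th1 supernatant, against 7.56% of all probes called higher and 7.98% called lower. Ifnb1, interferon-beta, was above background on 1 of 4 untreated and 4 of 4 Th1 arrays, with means of 4.41 and 6.98. The measured difference of 2.57 ± 0.64 (adjusted p = 0.00695, limma) thus rests on an untreated level that was mostly not measured. It ran from 0.88 to 3.94 over the alternatives, and the call was lost in 13 of 24. Il27, a subunit of a related cytokine that acts on T cells and is not a ligand of these receptors, rose by 1.59 ± 0.17 (limma adjusted p = 1.79e-05). Il10 itself changed by -0.57 ± 0.45 (adjusted p = 0.328). Ifng, Il12a, Il23a, Il17a and Il17f were not above background on the 4 arrays that the filter asked for, and Il12b and Ifnl2 matched no probe by symbol. The median over the 12 ligands and related cytokines was 0.34, against -0.06 over all probes.

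Of 5 measured partner and related chains, 1 rose, against 7.56% of all probes, and with so few genes 1 call does not set the list apart. The gene was Il23r, which joins IL-12R beta 1 in the IL-23 receptor. It was above background on 0 of 4 untreated and 4 of 4 Th1 arrays, with means of 3.91 and 6.03. Il23r passed the filter on dim probes only through the Th1 arrays, so no p-value is given for it. For a gene at background on all arrays of a group, the fold was taken against the lowest signal above background on those arrays. On the scale used here Il23r was in this sense at least 3.77-fold higher with Th1. That limit belongs to this scale only, since a brighter probe can still be at background, and with normexp the measured log2 difference was 0.61. The call was lost with normexp and with a floor of 50. Il6st, Il20rb, Il22ra1 and Il27ra were not called, with changes of -0.45 to 0.45, and Ifnlr1, the chain that pairs with IL-10RB for the interferons lambda, was not kept.

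Of 6 measured kinases and transcription factors of these pathways, 4 rose and 0 fell, against 7.56% and 7.98% of all probes, with a median of 1.34. Stat2 rose by 3.23 ± 0.34, Stat3, the factor used by the IL-10 receptor, by 1.58 ± 0.14, and the kinase Jak2 by 1.48 ± 0.20 (limma adjusted p at most 0.000131). Tyk2, the kinase shared by IFNAR1 and IL-12R beta 1, was called at 1.19 ± 0.12, and Jak1 (0.36 ± 0.14) and Irf9 (0.61 ± 0.22) were not called. Stat4, through which IL-12 acts in T cells, was not kept by the filter.

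Of 10 measured inhibitors of receptor signalling, 6 rose and 0 fell, against 7.56% and 7.98% of all probes, with a median of 2.13. Socs1, which blocks the kinases of the interferon receptors, rose by 8.09 ± 0.41, Cish by 5.88 ± 0.76, Socs3, induced by IL-10 among others, by 5.50 ± 0.36, and Usp18, which binds IFNAR2 and dampens type I interferon signalling, by 4.67 ± 0.91 (limma adjusted p at most 0.00156). The remaining calls were Socs2 and Ptpn2. Ptpn1 was not called at its first probe (0.88) but was at its other probe (1.14).

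Of 9 measured adaptors of the IL-17 receptor, 1 rose, a share near the 7.56% of all probes. The median over the 9 adaptors was 0.73, against -0.06 over all probes. The adaptor called was the kinase Ikbke, which rose by 1.25 ± 0.27 (adjusted p = 0.00327, limma). That call was lost in 3 of 24 alternatives, among them the one without untreated 13. Traf3ip2, which encodes Act1, changed by 1.05 ± 0.39 (adjusted p = 0.0445, not called). Of 6 measured genes of the IL-17 response, 0 rose and 1 fell, against 7.56% and 7.98% of all probes, so the list does not stand apart by its count. The gene was Cxcl1, a neutrophil chemokine, which all 4 untreated arrays but only 1 Th1 array measured above background, at means of 8.74 and 4.55. The measured difference of -4.19 ± 0.88 (adjusted p = 0.0024, limma) rests on a Th1 level that was mostly not measured. It ran from -5.20 to -1.86 over the alternatives, and the call was lost with normexp and with a floor of 50.

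Of 7 measured genes of the IL-10 response, 5 rose, against 7.56% of all probes. They were Il4ra, a chain of the IL-4 receptor (5.66 ± 0.31), Socs3, Bcl3 (2.07 ± 0.29), Nfil3 (1.56 ± 0.29) and Sbno2 (1.38 ± 0.22), with limma adjusted p of at most 0.0011. A second probe of Il4ra gave 2.36. These genes are known to be induced by other cytokines that act through STAT3 or STAT6 as well. Of the IL-12 response, 1 gene of 5 was measured, Il18rap, a chain of the IL-18 receptor, and it was called higher. It was above background on 0 of 4 untreated and 4 of 4 Th1 arrays, with means of 4.04 and 7.25. That is at least 8.61-fold higher in the same sense. Il18rap passed the filter on dim probes only through the Th1 arrays, so no p-value is given for it. With normexp the measured log2 difference was 0.86 and the call was lost. Tbx21, Il18r1, Ifng and Stat4 of the same list were not kept. With Th17 supernatant 0 genes of all these lists were called in the model used here and in each of the 24 alternatives.

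**Figure D4:**
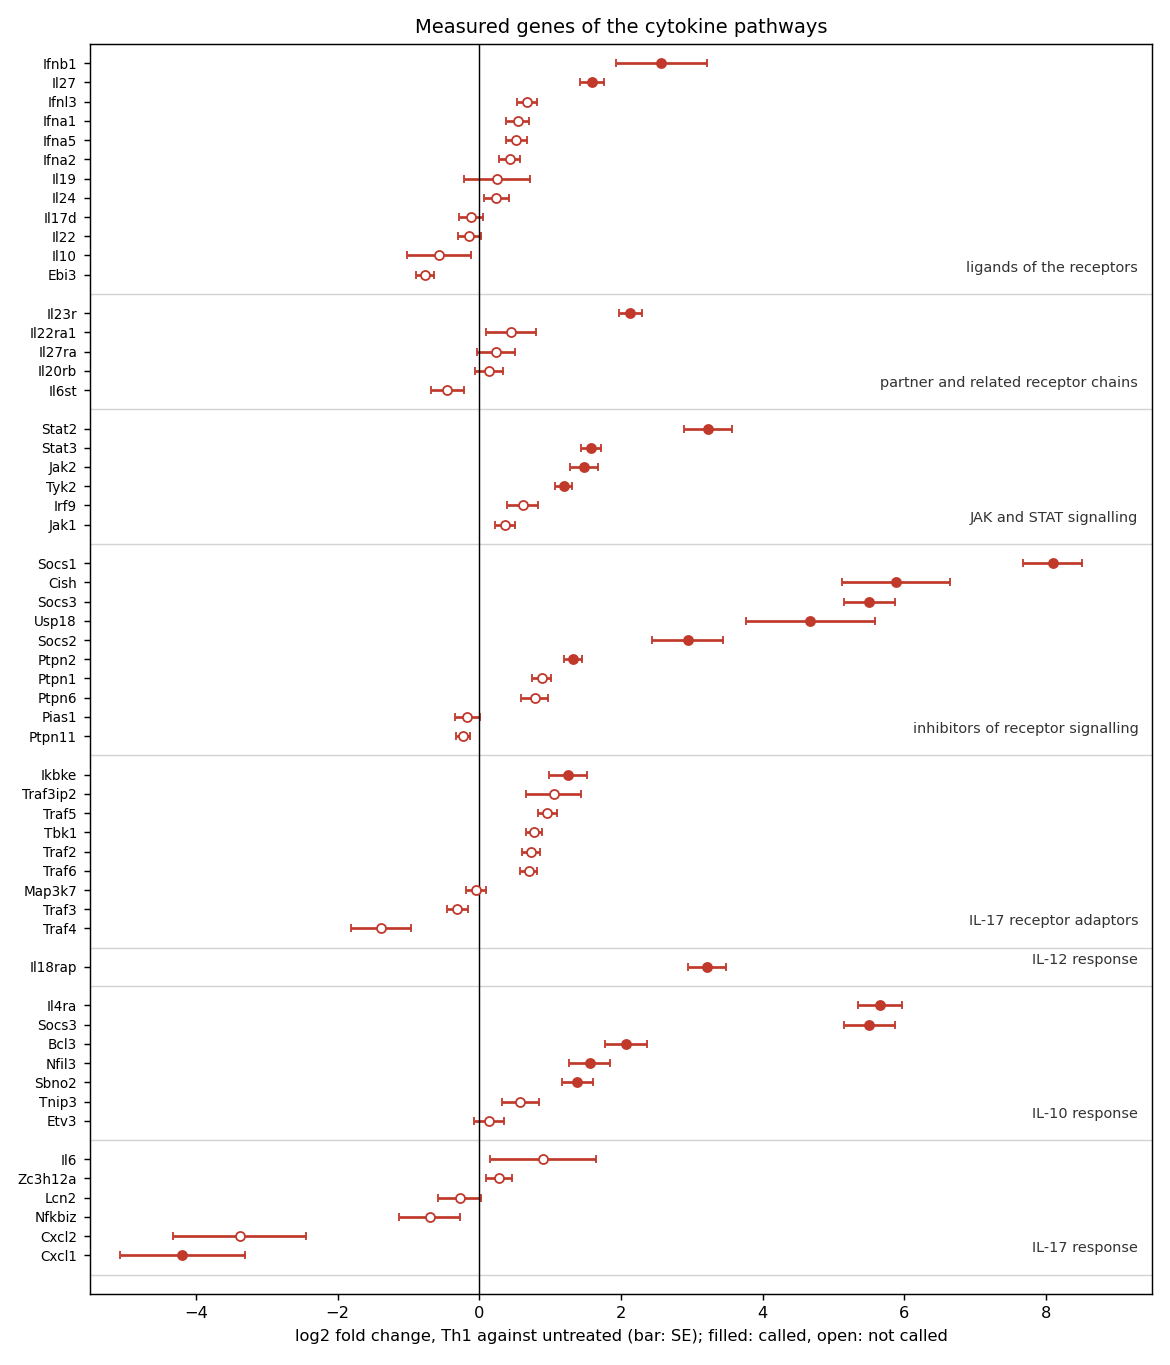
Log2 fold change of Th1 against untreated (x axis, bars are the SE) for the measured genes (y axis) of the 8 lists, separated by grey lines; filled circles are called. The inhibitors reach 8.09 (Socs1) and the lowest value is -4.19 (Cxcl1); the values drawn for Il23r, Il18rap, Ifnb1 and Cxcl1 are measured differences against a group at or mostly at background.

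In a bulk culture, fewer cells of a type and less RNA per cell cannot be told apart. All 8 microglia markers read on the array were above background on every array. With Th1 supernatant 3 of them were called higher (P2ry12, Aif1 and Ptprc, by 1.61, 1.18 and 1.04) and 3 lower (Cx3cr1, Trem2 and Tmem119, by -6.31, -2.50 and -2.29), and Itgam and Csf1r were not called. Their summed signal was 669000 to 904000 on the untreated, 568000 to 609000 on the Th1 and 675000 to 956000 on the Th17 arrays.

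Of the 10 T cell markers on the array, Cd3d, Cd3g, Cd8a and Cd2 were above background on 0 of the 12 arrays. The other 6 (Cd3e, Cd4, Cd5, Cd28, Lck and Zap70) were above background on every untreated and Th1 array, at means of 10.33 for Cd3e and 12.52 for Cd4 untreated and 10.03 and 12.37 with Th1. Of these 6, Lck was called higher with Th1 (2.35) and Cd28 (-5.28) and Cd5 (-1.31) lower. The summed signal was 9900 to 11300 untreated, 7550 to 8730 with Th1 and 6600 to 11100 with Th17. Of the 6 natural killer cell markers, Ncr1 and Klrb1c were above background on 0 arrays and Eomes on 1 untreated array, while Prf1 (9.31 untreated and 9.01 with Th1) and Gzma (5.29 and 5.59) were above background on all arrays of both groups. The sum moved with Il12rb1 and Il12rb2, at 662 to 779 untreated, 1040 to 1330 with Th1 and 645 to 799 with Th17. That rise was carried by Klrk1, at 3.91 untreated and 9.14 with Th1. The part of these markers in the rise of the IL-12 receptor chains was not tested.

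Of the other marker sums, that of neuronal genes was lower with Th1 (4270 to 5630, against 6150 to 16300 untreated). The genes did not move together. Of 5 measured, 1 was called higher (Syn1, 5.61 untreated and 7.39 with Th1) and 1 lower (Rbfox3, 6.54 and 4.11). Snap25, at 13.13 and 12.24, was not called. The sums of astrocyte, oligodendrocyte, fibroblast and mural, endothelial, perivascular macrophage, and monocyte and granulocyte genes overlapped between these groups. Single genes moved all the same. Of 8 measured oligodendrocyte genes, 2 were called higher and 2 lower, and of 4 perivascular macrophage genes 2 higher and 1 lower. Of 4 fibroblast and mural genes, 0 were called. Within the experiments, the endothelial sum was higher with Th1 in 4 of 4. Of 4 measured endothelial genes only Vwf was called (3.79). Untreated and Th1 means were 13.32 and 12.99 for Kdr, 6.24 and 6.84 for Pecam1, and 4.96 and 5.95 for Cdh5. The astrocyte and the monocyte and granulocyte sums were lower in 4 of 4, with 1 of 7 and 1 of 4 measured genes called, both lower. Their part in the receptor changes was not tested.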

How the data were processed

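Total RNA from the 12 microglia cultures was hybridised, 1 sample per array, to one-colour Agilent mouse 4x44K arrays on 3 slides. Per the file headers, the authors read the spots with version 10.7.3.1 of Agilent Feature Extraction. The deposited spot intensity used here (the processed signal) was background-subtracted and detrended and was not scaled between arrays. Control spots and spots given an outlier or manual mark (103 to 230 per array) were dropped, repeated spots of 1 probe were joined by their geometric mean, and the values of 39429 probes were quantile normalised, scaled to a 75th percentile of 1500, floored at 15 and put on a log2 scale, as the study's methods describe. Its filters on pixel variation and interquartile range were not applied. The deposited value table holds log2 values whose scale and centring its source does not state. They followed the log2 of the processed signal after division by the 75th percentile of the array and centring per probe (Pearson at least 0.99999 over 19912 bright probes, column medians -0.225 to 0.18) and served as an alternative.

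Probes well above background on at least 4 of 12 arrays (24286) were tested with limma 3.58.1 (R 4.3.3), with 1 mean per group over the 12 arrays. Between 54.49% and 64.99% of probes were well above background per array, no spot was saturated, and the number of arrays limits the precision. Transcript accessions were matched to RefSeq symbols (27234 probes, 69.07%). The first probe of a gene is its kept probe of highest mean signal, which also stands for each listed gene. The named genes were all receptor probes, up to 4 called genes per list and direction by size of change, and the 5 genes closest in pattern to the receptor probes with the largest rise and fall. Further listed genes are named with their values or calls, chosen after these were seen. The members, lists and tests were chosen with earlier results of these data known, and the differences between chains were chosen after the values were seen and are given without a test.

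Arrays with the same experiment number deviated together (correlation 0.24 to 0.63, each array closest to its own number), and the study describes 4 independent experiments, so the numbers pair the arrays. The main model did not use this pairing, and the alternative with the experiment as a block did. The alternatives changed the scaling, background correction, filter, floor, probes per gene, arrays in the fit and blocks, or left out arrays. The files hold no mean signal column, so normexp (offset 50) used the median signal. The fitting was tested on simulated data. Of the genes in the lists, 2 are not reported here and were left out of the counts, sums and medians of their lists.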

Additional observations from a re-analysis of the deposited data

Results flagged for a closer look

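On 3 of the 45 groups of 4 arrays (15 probes, 3 groups) a single array lay far from its group, where chance gives about 1 in 20. Ifnar1 probe 1 read 13.19 on Th17 13, with the nearest Th17 array at 13.56. Il10rb read 12.81 on Th1 16, with the nearest Th1 array at 13.40. Il17rc probe 2 read 4.21 on untreated 16, while the other untreated arrays lay at the floor of 3.91. The same Il17rc probe, which the filter left out of the tests, was above background on 3 arrays given supernatant (Th1 13, Th1 16 and Th17 16) and on 0 untreated arrays.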

How the results depend on the processing

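Il10ra and both probes of Il12rb1 and Il12rb2 were called in every alternative that was run, in Th1 against untreated and in Th1 against Th17. The number of receptor probes called ran from 5 to 8 in Th1 against untreated and from 4 to 7 in Th1 against Th17, and was 0 throughout in Th17 against untreated. Normexp lowered the calls over all probes from 3772 to 2395 (Th1 against untreated) and from 3636 to 2299 (Th1 against Th17), and the cause was not tested. No called receptor change turned its direction. The Ifngr1 call was lost, under 2-fold, with scaling to the 75th percentile and with the value table (-0.82 each), without untreated 14 (-0.99) and without Th1 16 (-0.98). Il17rc was called with the slide as a block (adjusted p = 0.00727), with the stricter filter (0.00969) and without untreated 16 (1.41, adjusted p = 0.00657; limma), and was at 0.53 with normexp. The call of Ifnar1 probe 1 held in 8 of 24 alternatives against untreated and in 11 of 24 against Th17, where it was lost without Th1 12 (-0.87), Th1 13, Th17 12, Th17 14, Th17 16 or untreated 13. Ifngr1 in Th1 against Th17 was called with the slide as a block (-1.08), without Th1 14 (-1.02) and without Th17 16 (-1.11). The replicate block, with the experiment number, gave 8 receptor calls in Th1 against untreated and changed no receptor call other than that of Il17rc. The 4 arrays per group and the dim signal of Il12rb1, Il12rb2 and Il17rc limit what can be seen.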
